A study of Mus musculus with 6 samples.

Results

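The 40 genes described here act in cell division, and were followed in livers of mice given inosine and of control mice. Of these, 22 act in mitosis and 18 in DNA replication or the step from G1 to S phase that precedes it. They were picked by name for their role, with earlier results of these data known, and all 40 stood among the 16375 genes of the deposited table. The series compared bulk liver RNA of 3 control libraries with 3 libraries from mice that had received an intraperitoneal injection of inosine, the purine nucleoside formed when adenosine is deaminated. The sources used here give no strain, sex, age, dose, number of injections or time of collection, nor what the control animals received. Whether the libraries come from separate animals is unstated. The p-values therefore reflect spread among the 6 libraries only, which may be technical. Albumin (Alb), transthyretin (Ttr) and apolipoprotein A-I (Apoa1), made by hepatocytes, were abundant in all 6 libraries, with Alb at 45340 to 71370 TPM (a transcript level scaled for transcript length and library total). Each library held between 16383896 and 17505035 counts.

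Most cells of the adult liver rest outside the cell cycle. A resting cell that re-enters it first makes D-type cyclins, whose kinases release the transcription factor E2F1 from its inhibitors. E2F then switches on the genes that license origins, load the MCM helicase, make deoxynucleotides and copy DNA. Genes for mitosis are switched on later, through CCAAT boxes and a promoter element called the cell cycle genes homology region (CHR), which the DREAM and MMB-FOXM1 complexes bind. Transcripts of many genes of both sets are therefore low in resting tissue.

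Both kinds of promoter can be seen in the sequences of some members, chosen as examples. Shown are the 250 bases before the RefSeq transcription start, 5' to 3' on the coding strand. The build is GRCm38.p6, while the deposited coordinates are of GRCm39. Capitals mark matches on either strand. The CHR was searched as the letters TTTGAA and the CCAAT box by its own letters. A match like an E2F site was the word TTTGGCG, or else the word TTTCGCG, or else the word TTTCCCG. Top2a and Cdk1 are from the mitotic genes, and Mcm5 and Mcm6 from the replication genes. These 2 helicase genes varied most between controls relative to their mean level.
Top2a (chr11:99024190-99024439, minus strand): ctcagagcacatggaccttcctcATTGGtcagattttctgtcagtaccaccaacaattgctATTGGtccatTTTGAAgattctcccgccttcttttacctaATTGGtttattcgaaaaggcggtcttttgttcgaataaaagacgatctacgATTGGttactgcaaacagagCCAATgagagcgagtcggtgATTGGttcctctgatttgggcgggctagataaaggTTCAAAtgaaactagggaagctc
Cdk1 (chr10:69352913-69353162, minus strand): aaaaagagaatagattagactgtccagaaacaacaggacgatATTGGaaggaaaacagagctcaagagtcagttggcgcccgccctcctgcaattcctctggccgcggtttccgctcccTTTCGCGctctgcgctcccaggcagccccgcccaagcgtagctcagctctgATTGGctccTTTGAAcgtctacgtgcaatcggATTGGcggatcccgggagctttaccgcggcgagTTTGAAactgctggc
Mcm5 (chr8:75109259-75109508, plus strand): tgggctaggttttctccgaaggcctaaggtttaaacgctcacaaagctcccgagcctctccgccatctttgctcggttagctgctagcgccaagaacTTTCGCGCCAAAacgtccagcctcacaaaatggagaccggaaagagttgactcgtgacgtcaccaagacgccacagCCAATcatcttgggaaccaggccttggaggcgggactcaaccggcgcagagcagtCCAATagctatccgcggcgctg
Mcm6 (chr1:128359706-128359955, minus strand): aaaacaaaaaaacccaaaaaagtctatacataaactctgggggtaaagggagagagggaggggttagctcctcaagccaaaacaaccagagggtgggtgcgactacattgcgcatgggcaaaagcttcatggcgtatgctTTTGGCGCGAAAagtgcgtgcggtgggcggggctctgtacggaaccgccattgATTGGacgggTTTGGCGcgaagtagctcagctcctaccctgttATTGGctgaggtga
The Top2a stretch holds 2 CHR matches and 6 CCAAT boxes, and that of Cdk1 holds 2 CHR matches, 3 CCAAT boxes and 1 E2F-like match. Mcm6 has 3 E2F-like matches, of which 2 overlap, 2 CCAAT boxes and 0 CHR matches. In Mcm5 the 2 E2F-like matches overlap as well. Motifs were then counted in RefSeq windows of 300 bases, 250 before to 50 after the start, which were at hand for 32 of the 40 members. The windows used here do not include Ccna2, Aurkb, Kif20a, Tpx2, Mcm4, Ccne2, Ccnd1 and Gins2. A CHR match lay in 14 of the 19 windows of mitotic genes (73.7%) and in 1 of the 15 windows of replication genes (6.67%), against 17.9% of all 32851 windows. E2F-like letters showed the opposite order, in 3 of 19 mitotic windows (15.8%) and in 6 of 15 replication windows (40%), against 5.58% of all windows. CCAAT boxes lay in 17 mitotic and 9 replication windows (89.5% and 60%), against 37.4% of all. The window of Tk1, the member of smallest p, held 0 CHR, 0 CCAAT and 0 E2F-like matches. A match is a run of letters and not a measured binding site.

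Measured levels were lower in inosine-treated liver for most of the 40 genes, but the calls on single genes were few. With no filter on low counts, 37 of 40 members had a negative log2 fold change of inosine over control, 21 of 22 mitotic and 16 of 18 replication genes, where 53.1% of all genes with any count were below 0. The median was -0.97 over the mitotic genes and -0.45 over the replication genes, and -0.02 over all genes with any count. The exceptions were Plk1, Ccne2 and Ccnd1. In bulk liver, fewer dividing cells and less of these mRNAs per cell cannot be told apart. Members share their libraries, so 37 of 40 is 1 observation on 6 libraries and not 37 independent ones.

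After the low-count filter 30 members were tested, 13 mitotic and 17 replication genes, with edgeR's quasi-likelihood test. No member passed at an adjusted p under 0.05, as against 1 of 12326 genes in all (0.00811%). Before adjustment, edgeR gave p under 0.05 to 7 members, 6 lower and 1 higher. Over all genes tested, 7.26% were lower and 7.21% higher by that measure. DESeq2 called 2 members lower, Tk1 and Top2a, and 0 higher, with 1.08% and 1.06% of the genes it adjusted called lower and higher. It gave no adjusted p for some tested members, Kif20a, Cdt1 and Rrm2 among them. The authors' deposited table gives Tk1 and Top2a alone of the members a q-value under 0.05, with 0.594% of its genes lower and 0.575% higher. In the tested members the median log2 fold change was -0.65 for mitosis and -0.43 for replication, and 27 of 30 were below 0, against 51.8% of all genes tested. These medians moved when a control was left out. That of mitosis was -0.30 without control 2 and -1.17 without control 3, and that of replication was 0.13 without control 1. The filter was run anew for each omission, with 31, 30 and 36 members tested without controls 1, 2 and 3. The medians thus cover differing sets, and the mitotic set was larger without control 3. Of the 30 members tested with all libraries, 3 had more control than inosine libraries at 10 counts or more (Ccnb2, Prc1 and Rrm2). With them a lower value in inosine is partly tied to the filter.

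**Figure D1:**
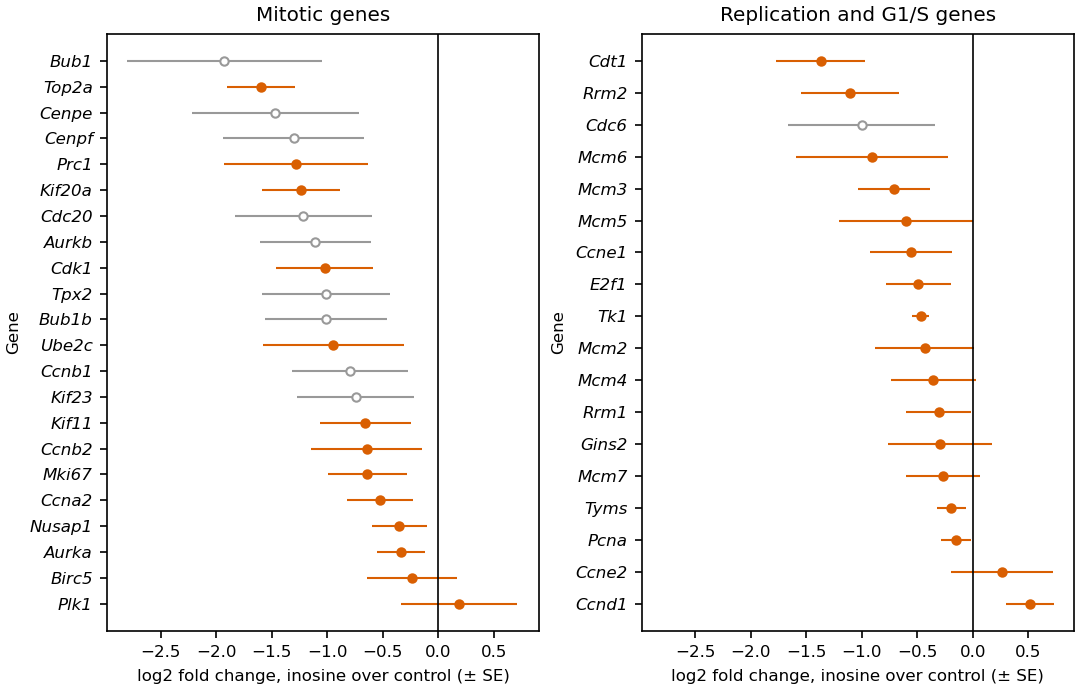
Log2 fold change of inosine over control (x axis, ± SE) for the 40 genes (y axis), mitotic on the left and replication on the right. Filled points passed the low-count filter; open grey points, 9 mitotic genes and Cdc6, are from the fit with no filter. Only Plk1, Ccne2 and Ccnd1 lie right of 0.

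Top2a, the topoisomerase that untangles DNA before chromosomes separate, differed most among the mitotic genes tested. Its level was 0.80, 0.98 and 0.52 TPM in controls 1 to 3 and 0.21, 0.31 and 0.27 TPM in inosine 1 to 3. Every inosine library lay below every control. These levels rest on 51, 66 and 35 counts in control and 14, 19 and 18 counts in inosine. The log2 fold change was -1.60 (SE 0.31), with adjusted p = 0.11 in edgeR, 0.0052 in DESeq2 and a q-value of 0.011 in the authors' deposited table. Over the 6 omissions of a library it stayed between -1.81 and -1.35, with an unadjusted edgeR p between 0.00032 and 0.0046. Its position in GRCm39 is chromosome 11, 98883773 to 98915037 (gene ID 21973).

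The kinesin Kif20a, a motor of the central spindle needed for cytokinesis, measured 0.62, 1.03 and 0.51 TPM in control and 0.33, 0.34 and 0.28 TPM in inosine. Again the groups did not overlap. The log2 fold change was -1.24 (SE 0.35; edgeR unadjusted p = 0.0080, adjusted p = 0.21). Its deposited span overlaps that of Cdc23, an anaphase-promoting complex gene, over 4930 bases, and some of its counts are not whole as happens where reads that match more than 1 transcript are divided. Cdc23 itself measured -0.22 (SE 0.10, edgeR adjusted p = 0.35).

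Cdk1, the kinase that drives entry into mitosis, stood at 1.32, 1.10 and 0.38 TPM in control and 0.42, 0.63 and 0.38 TPM in inosine. Controls 1 and 2 were high, and control 3 lay at the level of inosine 3. The log2 fold change was -1.02 (SE 0.44; edgeR unadjusted p = 0.047, adjusted p = 0.34), and it went to -0.71 without control 1 and to -1.40 without control 3. Prc1, which bundles the microtubules of the central spindle, was likewise lower in control 3 than in the other controls, with 0.51, 0.89 and 0.19 TPM in control and 0.09, 0.26 and 0.34 TPM in inosine (log2 fold change -1.28, SE 0.65, edgeR adjusted p = 0.41; -0.65 without control 2). Prc1 overlaps Rccd1 over 21819 bases, and Rccd1 measured -0.56 (SE 0.21, edgeR adjusted p = 0.29).

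The 4 most abundant mitotic members did not pass an unadjusted p under 0.05. Birc5, or survivin, of the chromosomal passenger complex, measured 2.45, 3.06 and 0.82 TPM in control and 1.77, 1.70 and 2.08 TPM in inosine, with a log2 fold change of -0.24 (SE 0.40). Its order in TPM was not that of its counts: control 3 had 24 counts and inosine 2 had 20. TPM divides by the length of the transcripts to which reads were assigned, and counts do not. Ube2c, the ubiquitin-conjugating enzyme of the anaphase-promoting complex, measured 1.88, 4.21 and 0.96 TPM in control and 1.58, 0.53 and 1.69 TPM in inosine (log2 fold change -0.95, SE 0.64), and its fold change was -0.17 without control 2. Ccnb2, a mitotic cyclin, measured 1.01, 1.94 and 0.66 TPM against 1.09, 0.46 and 0.85 TPM (log2 fold change -0.65, SE 0.50; -0.08 without control 2). In both genes control 2 was the highest library and the groups overlapped. Aurka, the kinase of the centrosome and spindle poles, measured 2.05, 1.69 and 1.43 TPM against 1.55, 1.62 and 1.17 TPM. On counts scaled by TMM (edgeR's library scaling) its groups did not overlap, while on TPM they did (log2 fold change -0.33, SE 0.22; edgeR adjusted p = 0.51).

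Of the remaining mitotic genes tested, the proliferation marker Mki67 measured -0.64 (SE 0.36), the S and G2 cyclin Ccna2 -0.52 (SE 0.30), the spindle motor Kif11 -0.65 (SE 0.41) and the spindle protein Nusap1 -0.35 (SE 0.25). Without control 2 Mki67 measured -0.14 and Kif11 -0.30. Plk1, a kinase of mitotic entry and the spindle, was the exception at 0.19 (SE 0.52), with 0.49, 0.61 and 0.12 TPM in control and 0.39, 0.51 and 0.54 TPM in inosine. Their adjusted p in edgeR ran from 0.45 to 0.90. The 9 mitotic genes too low to be tested were Ccnb1, Aurkb, Bub1, Bub1b, Cdc20, Cenpe, Cenpf, Kif23 and Tpx2. They encode a cyclin, checkpoint and kinetochore proteins, the passenger kinase and spindle factors. Each had a lower mean in inosine, with log2 fold changes of -1.93 for the checkpoint kinase gene Bub1 to -0.74 for the kinesin gene Kif23 with no filter. The largest count among the 54 values of these genes was 28, reached in control 2 by the anaphase activator Cdc20 and the spindle factor Tpx2, and Bub1 had 0 counts in inosine 2, which allows up to 3. Aurkb, with 12, 12 and 6 counts in control and 6, 5 and 3 in inosine, was the 1 untested member whose groups did not overlap on TMM-scaled counts.

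Adding the TPM of all 22 mitotic genes showed how the controls differed from each other. The sums were 17.5, 23.5 and 8.63 TPM in controls 1 to 3 and 11.3, 10.2 and 10.5 TPM in inosine 1 to 3. Thus on this sum the inosine libraries lay close together, controls 1 and 2 lay above them and control 3 lay below them. The median over the 22 genes of the log2 level relative to the control mean placed control 3 otherwise. At -0.69 it lay among the inosine libraries (-0.55, -0.77 and -0.625). Control 2 was the highest of the 6 libraries for 16 of the 22 genes and control 1 for the other 6. Among all genes tested, 12.3% and 15.5% were highest in these libraries. The 22 include untested genes, which those shares leave out. Control 3 was the lowest control for each of the 22. The whole set amounts to 309 to 767 counts in a library.

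**Figure D2:**
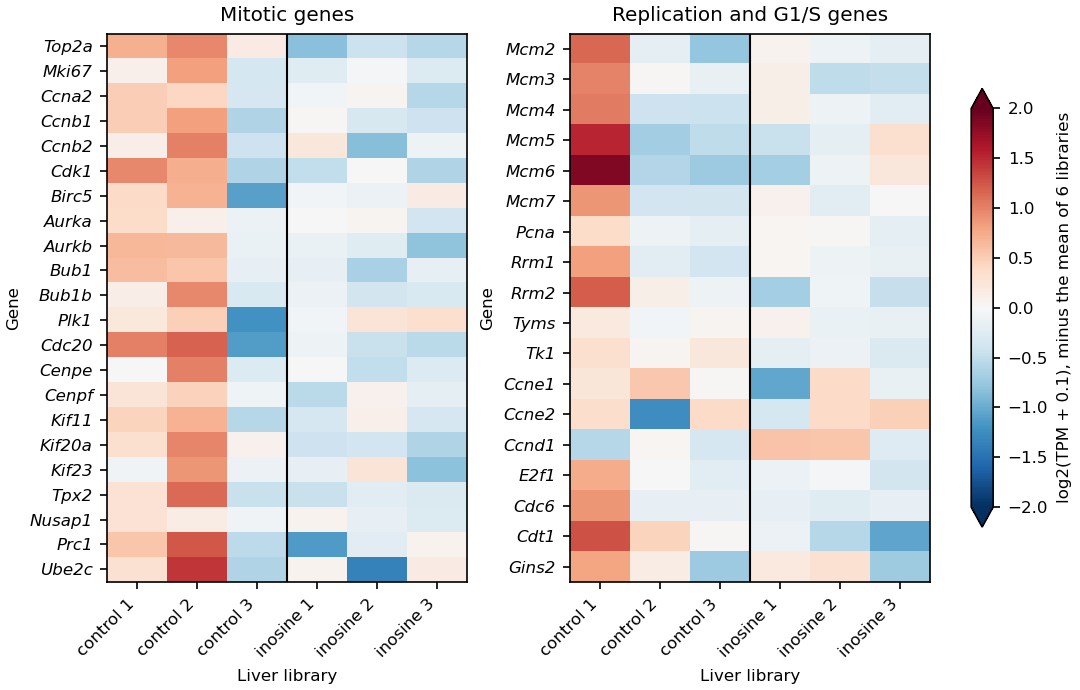
Level of each of the 40 genes (rows) in each liver library (columns) as log2(TPM + 0.1) minus the mean of the 6 libraries; red is above and blue below that mean, and the line parts control from inosine. Control 2 stands out among mitotic genes and control 1 among replication genes.

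Among the replication genes, Tk1 had the smallest p of the 40. It encodes the cytosolic thymidine kinase, which salvages thymidine for DNA synthesis. Its level was 82.6, 68.9 and 77.4 TPM in control and 58.5, 60.8 and 54.0 TPM in inosine, and the groups did not overlap. The log2 fold change was -0.47 (SE 0.08), with adjusted p = 0.083 in edgeR, 0.0034 in DESeq2 and a q-value of 0.0073 in the authors' deposited table. It stayed between -0.52 and -0.43 whichever library was left out. Tk1 was also the most abundant of the 40 genes. The gene (ID 21877) occupies 117706345 to 117716913 of chromosome 11 in GRCm39. Its deposited span overlaps by 585 bases that of Afmid, the formamidase gene of tryptophan breakdown. Afmid measured 175, 111 and 142 TPM in control and 140, 114 and 129 TPM in inosine, with overlapping groups, and its log2 fold change was -0.26 (SE 0.16; adjusted p = 0.49 in edgeR).

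Origin licensing and nucleotide supply held the next members by p. Cdt1, which loads the MCM helicase at origins, measured 2.55, 1.39 and 1.01 TPM in control and 0.91, 0.64 and 0.43 TPM in inosine, without overlap (log2 fold change -1.37, SE 0.40; edgeR unadjusted p = 0.0094, adjusted p = 0.22). Rrm2, the inducible subunit of ribonucleotide reductase, measured 1.62, 0.70 and 0.59 TPM against 0.36, 0.60 and 0.44 TPM. Its groups met on TPM and were apart on TMM-scaled counts (log2 fold change -1.10, SE 0.44; edgeR unadjusted p = 0.038, adjusted p = 0.31). For both genes control 1 was the highest library, and without it their log2 fold changes were -0.94 and -0.55, with an unadjusted edgeR p of 0.032 and 0.17. DESeq2 gave neither an adjusted p. The other subunit gene Rrm1 measured -0.31 (SE 0.29) and thymidylate synthase (Tyms) -0.19 (SE 0.13). Cdc6, the partner of Cdt1 in licensing, was too low to test, with 14, 4 and 4 counts in control and 4, 3 and 4 in inosine.

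On TMM-scaled counts the groups of 6 tested members did not overlap with inosine below, namely Top2a, Kif20a, Aurka, Tk1, Cdt1 and Rrm2, and 0 had inosine above. Over all genes tested the shares are 9.8% and 11.1%. Counting also the untested genes gave 7 of 40 below and 0 above, with 8.45% and 9.37% over all genes with any count.

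The only member higher in inosine at an unadjusted p under 0.05 was Ccnd1, cyclin D1, which starts the passage through G1. It measured 9.10, 14.0 and 10.8 TPM in control and 20.2, 19.9 and 11.4 TPM in inosine. Inosine 1 and 2 lay above all controls, while inosine 3 lay within the control range. The log2 fold change was 0.52 (SE 0.22; edgeR unadjusted p = 0.044, adjusted p = 0.33). It ranged from 0.37 without control 1 to 0.73 without control 2, and was 0.70 without inosine 3. Its unadjusted edgeR p was above 0.05 without control 1, control 3, inosine 1 or inosine 2 (0.12, 0.10, 0.14 and 0.12). Ccnd1 (gene ID 12443) lies on chromosome 7, from 144483668 to 144493568, and overlaps the gene listed as LTO1 over 818 bases. The E-type cyclins act after cyclin D1, at the start of S phase. Ccne1 measured -0.56 (SE 0.37; -0.23 without inosine 1) and Ccne2 0.26 (SE 0.46). Ccne2 ranged from 0.31 to 1.16 TPM in control and from 0.66 to 1.24 TPM in inosine, and overlaps Ints8 over 5622 bases. E2f1, which cyclin D kinases release, measured 1.77, 1.03 and 0.86 TPM against 0.93, 0.99 and 0.77 TPM (log2 fold change -0.49, SE 0.29, edgeR adjusted p = 0.48; -0.14 without control 1).

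**Figure D3:**
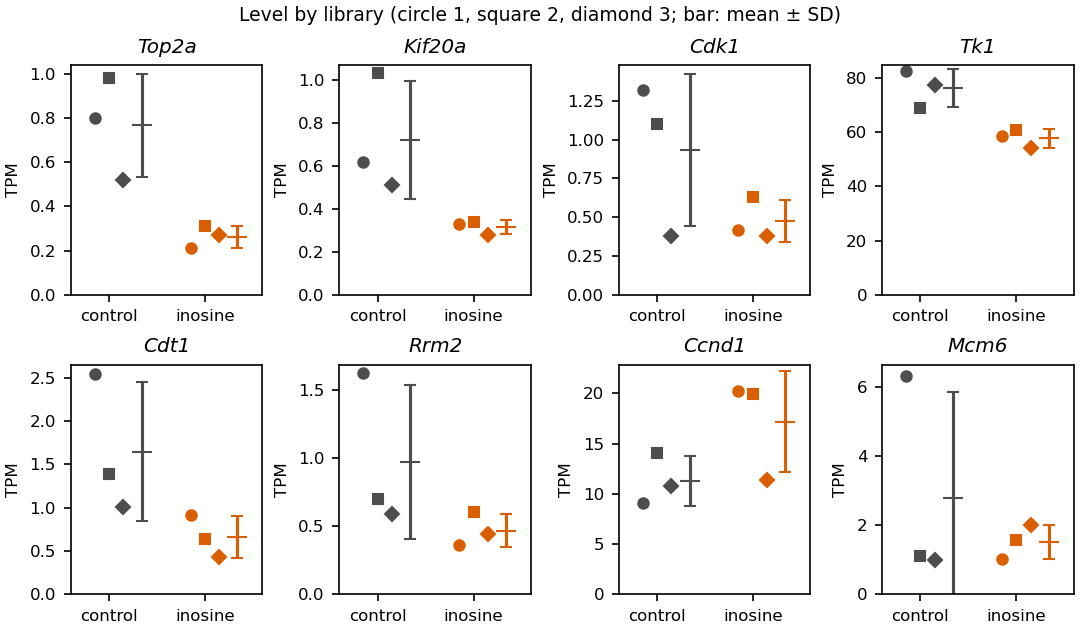
TPM (y axis, from 0) of 8 members in each library, with symbols for replicate number and a bar for mean ± SD of the 3 libraries of a group; the lower end of the control bar of Mcm6 falls below 0 and is not drawn. Top2a, Kif20a, Tk1 and Cdt1 show no overlap, and the control mean of Mcm6 is carried by control 1.

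The 6 genes of the MCM2-7 helicase, the ring that unwinds DNA at replication forks, had lower means in inosine. For all but Mcm3 the lower mean rested on 1 control. Mcm6 measured 6.31, 1.09 and 0.98 TPM in controls 1 to 3 and 1.01, 1.56 and 1.99 TPM in inosine 1 to 3. Control 1 was 6.10 times the mean of the other controls, and the inosine libraries lay around or above those. Mcm5 measured 4.70, 0.93 and 1.07 TPM in control and 1.12, 1.37 and 1.98 TPM in inosine. Here each inosine library lay above controls 2 and 3 and below control 1. Mcm2, Mcm3, Mcm4 and Mcm7 were 2.12 to 3.17 times as high in control 1 as in the mean of the other controls. The most abundant of them, Mcm7, measured 11.4, 4.67 and 4.73 TPM in control and 6.52, 5.18 and 6.08 TPM in inosine. Summed over the 6 genes, the level was 37.1, 12.8 and 12.0 TPM in control and 16.1, 13.9 and 15.6 TPM in inosine. The ratio of inosine to control was 0.74 with all libraries and 1.23 without control 1. Fold changes on the log2 scale ran from -0.91 (SE 0.69) for Mcm6 to -0.27 (SE 0.33) for Mcm7, with an edgeR adjusted p of at least 0.36. Without control 1 those of Mcm2, Mcm4, Mcm5, Mcm6 and Mcm7 were 0.32, 0.30, 0.51, 0.44 and 0.26, and that of Mcm3 was -0.29. None of these passed (edgeR adjusted p from 0.34 to 0.53).

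Control 1 stood apart on replication genes beyond the helicase. Its TPM was at least 1.5 times that of the next highest library for 11 of 18 replication and 0 of 22 mitotic genes. Among all genes tested 0.86% met this measure, chosen after the values were seen. The member counts include untested genes, which that share leaves out. The 11 were Mcm2 to Mcm7, Rrm1, Rrm2, E2f1, Cdc6 and Cdt1. Gins2, of the GINS complex that activates the helicase, had 1.93, 1.20 and 0.61 TPM in control and 1.24, 1.35 and 0.62 TPM in inosine. Pcna, the sliding clamp of DNA polymerases, was abundant and near level, with 57.0, 41.3 and 39.2 TPM in control and 45.5, 44.9 and 39.1 TPM in inosine (log2 fold change -0.15, SE 0.13, edgeR adjusted p = 0.62). Over the 17 replication genes tested the median log2 fold change was -0.43 with all libraries and 0.13 without control 1. The mitotic median was -0.73 without control 1, -0.30 without control 2 and -1.17 without control 3. The last of these was taken over a larger set of members, since the filter was run anew.

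**Figure D4:**
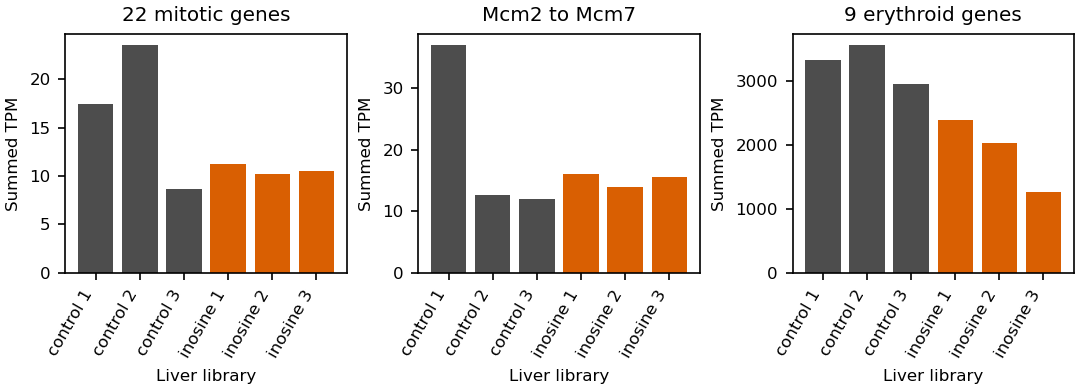
Summed TPM (y axis, from 0) of the 22 mitotic genes, the 6 helicase genes Mcm2 to Mcm7 and 9 erythroid genes in each liver library (x axis; grey control, orange inosine). Control 3 lies below the inosine libraries for mitosis, control 1 holds the highest helicase level at 37.1 TPM, and the erythroid sum is lower in each inosine library than in any control.

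Other genes of the same machinery were read from lists drawn up by function, also with earlier results of these data known. Of 27 tested further mitotic genes, 23 were below 0 with a median of -0.44, and edgeR's unadjusted p was under 0.05 for 6, each of them lower. Over all genes tested 51.8% were below 0, with 7.26% lower and 7.21% higher by that p. The 4 of smallest p were Cks2, a small subunit bound by Cdk1 (-0.39, SE 0.10), the condensin genes Ncapg2 (0.617 TPM in control and 0.323 TPM in inosine on average) and Smc4 (-0.44, SE 0.13), and the chromosome motor Kif22 (-0.99, SE 0.37). Each had all inosine libraries below all controls on TMM-scaled counts, as did 9.8% of all genes tested. Picking genes by smallest p favours groups that do not overlap. Adjusted p in edgeR ran from 0.16 to 0.30 for these 4. Kif22 reached 10 counts in 3 controls and 1 inosine library, so its lower value is partly tied to the filter. Of 48 tested further replication genes, 38 were below 0 with a median of -0.13. By edgeR's unadjusted p under 0.05, 5 were lower and 0 higher, a share of lower genes near that over all genes (7.26%). Summed over the 51 genes of this list, the TPM ratio of inosine to control was 0.97 with all libraries and 1.04 without control 1. The 4 of smallest p were Pola2, a subunit of DNA polymerase alpha-primase (-0.44, SE 0.14), Pold1, the catalytic subunit of polymerase delta (-0.57, SE 0.20), Uhrf1, which carries DNA methylation through replication (-1.35, SE 0.54; control 1 at 3.34 times the mean of the other controls), and Gmnn, geminin, the inhibitor of Cdt1 (-0.36, SE 0.15). Their edgeR adjusted p ran from 0.25 to 0.32. Uhrf1 reached 10 counts in 3 controls and 2 inosine libraries, so its lower value is partly tied to the filter as well.

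Regulators of the cycle were divided, with 22 of 38 tested below 0, a median of -0.04, and 5 lower and 2 higher where edgeR's unadjusted p was under 0.05 (51.8%, 7.26% and 7.21% over all genes tested). Ccng2, cyclin G2, known for its expression in resting cells, measured 9.61 TPM in control and 4.90 TPM in inosine on average, with control 1 highest at 14.9 TPM (log2 fold change -1.01, SE 0.32). DESeq2 called it (adjusted p = 0.036), and edgeR did not (adjusted p = 0.24). The growth regulator Myc measured -0.63 (SE 0.18), the pocket protein gene Rbl2, which represses E2F targets in resting cells, -0.25 (SE 0.08), and its partner E2f4 0.30 (SE 0.10). None of these 3 passed in edgeR (adjusted p from 0.21 to 0.26).

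Transcripts of other cell types were measured beside these genes, since dividing cells of the liver need not be hepatocytes. Of 9 erythroid genes 8 were tested and 6 of these were below 0, and the summed level was 2965 to 3567 TPM in control and 1264 to 2396 TPM in inosine, without overlap. By edgeR's unadjusted p under 0.05, 5 of the 8 were lower, where 7.26% of all genes tested were. DESeq2 called 4 lower, where 1.08% of the genes it adjusted were. The 2 above 0 on the log2 scale were Epor (0.004) and Tfrc (0.18). The summed level is almost wholly globin. Alas2, the heme synthesis enzyme of red cell precursors, averaged 23.6 TPM in control and 12.2 TPM in inosine without overlap (log2 fold change -0.99, SE 0.23; edgeR adjusted p = 0.14). Klf1, a transcription factor of dividing red cell precursors, measured 0.44 to 1.20 TPM in control and 0.64 to 0.83 TPM in inosine. For 10 genes of T, B and NK cells the sum was 4.89 to 8.03 TPM in control and 2.65 to 6.32 TPM in inosine, with Klrb1c at 0 in 2 libraries, and the 4 genes tested were below 0. For 8 neutrophil and myeloid precursor genes it was 7.21 to 33.4 TPM and 8.90 to 34.2 TPM, with control 1 lowest, and all 3 genes tested were below 0. Ly6g was at 0 in 5 libraries and Camp in 3. Sums for 8 Kupffer cell genes (163.5 to 225 TPM and 161 to 201 TPM; 7 of 8 below 0), 8 endothelial genes (113 to 130.0 TPM and 81.6 to 129.8 TPM; 8 of 8 below 0) and 8 stellate genes (132 to 155 TPM and 95.2 to 170.3 TPM; 8 of 8 below 0) overlapped between groups. Sums for 6 cholangiocyte genes (32.3 to 41.0 TPM and 40.2 to 68.9 TPM; 3 of 5 tested below 0) and 6 hepatocyte genes (77410 to 105700 TPM and 89540 to 122000 TPM; 1 of 6 below 0) overlapped as well. The cholangiocyte sum is nearly all Spp1, osteopontin, which measured 0.58 on the log2 scale (SE 0.16; adjusted p = 0.20 in edgeR) and was called higher by DESeq2. By the same unadjusted edgeR p, 2 endothelial, 2 stellate and 1 Kupffer cell genes were lower and 0 higher. DESeq2 called 1 of the endothelial genes lower. In the T, B and NK list and the neutrophil and myeloid list 0 genes were under 0.05 by that p. No list had a gene at 0 in every library. The part of these cells in the lower levels of cell cycle genes was not tested.

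Overlapping genes bear on some of these values. In the deposited coordinates 13 of the 40 members overlap another gene of the table, and 7 members (Ccna2, Ccnb1, Kif20a, Tyms, Tk1, Ccne2 and Ccnd1) have counts that are not whole. The other 8 members with an overlap, Prc1 and Mcm4 among them, have whole counts in each library. The sources used here do not state whether counting used strand, and how far overlapping genes share reads was not tested.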

How the data were processed

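Bulk RNA-seq of 6 mouse liver libraries was analysed, 3 control and 3 inosine, grouped by title. The authors deposited estimated counts per gene, TPM, FPKM (not used here), and a log2 fold change with p-value and q-value from DESeq2, per the file headers. Per the submitters' processing notes, Bowtie2 and RSEM were used with GRCm39 (versions unstated). The table held 16375 genes and 1 line without content. The deposited strand of some genes, Tk1 and Mki67 among them, differs from RefSeq and was not used. Estimated counts were rounded. Pairs of libraries of a group differed by more than sampling noise (chi-square per gene 27.3 between controls 2 and 3, 115.1 and 80.4 between these and control 1, and 40.0 to 86.9 between inosine libraries). TPM was used for levels, and intervals or floors cover counting error alone.

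The test was the quasi-likelihood test of edgeR 4.0.16 in R 4.3.3, two-sided, with TMM scaling, edgeR's low-count filter built on 10 counts, group as the only term, and Benjamini-Hochberg adjustment over 12326 genes with a threshold of 0.05. As a check of the code, it was also run on counts simulated from its own fit, with genes drawn independently. SE is the log2 fold change divided by the square root of F. Alternatives were DESeq2 1.42.0, limma 3.58.1 on log2(TPM + 1), scaling by relative log expression, no filter, the replicate number as a block, and omission of each library. Members and lists were chosen with earlier results of these data known. Values by library are given for the 4 members of smallest p and the 4 of highest TPM in each subgroup and for those whose groups do not overlap. From each further list the 4 of smallest p are named. Others given by library were chosen after their values were seen. Promoter sequences are from RefSeq, GRCm38.p6. The value of 1 marker gene is not reported here.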

Additional observations from a re-analysis of the deposited data

How the results depend on the processing

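The number of genes called in the whole table was 1, against 233 with DESeq2, 9 with no filter, 0 with limma on log2(TPM + 1) and 0 with the replicate block, and 0 to 56 over the omissions of a library. Members with adjusted p under 0.05 numbered 0 in edgeR and 2 in DESeq2. Members at an unadjusted p under 0.05 numbered 7 (6 lower, 1 higher). Over the omissions they numbered 4 to 17, with 4 to 17 lower and 0 to 1 higher. The 17 arose without control 3, where 36 members passed the filter, run anew for each omission, and 5.77% of all genes were lower. Of the members untested with all libraries, Ccnb1, Aurkb, Cenpf and Tpx2 reached 10 counts in controls 1 and 2 and in 0 inosine libraries. A lower value in such genes is partly tied to the filter. Members with inosine below all controls numbered 6, and 6 to 17 over the omissions (17 without control 3); those with inosine above numbered 0, and 0 to 1. Non-overlap is commoner with fewer libraries: over all genes tested, 14.1% had inosine below without control 3, and 13.3% to 19.8% over the omissions. Over the members that passed the filter in each fit, the mitotic median of -0.65 ranged from -1.17 without control 3 to -0.30 without control 2. The replication median of -0.43 ranged from -0.63 to 0.13, and its sign turned without control 1. Signs also turned without control 1 for single genes, which over the omissions ranged from -0.78 to 0.32 (Mcm2), -0.61 to 0.30 (Mcm4), -0.96 to 0.51 (Mcm5), -1.31 to 0.44 (Mcm6), -0.48 to 0.26 (Mcm7), -0.26 to 0.02 (Pcna), -0.53 to 0.15 (Rrm1) and -0.63 to 0.13 (Gins2). Birc5 ranged from -0.66 to 0.05 (above 0 without control 2, and at 0.03 without inosine 2), Plk1 from -0.26 without control 3 to 0.65, and Ccne2 from -0.13 without control 2 to 0.52. The cause of these turns was not tested. Single genes kept direction and side of the threshold in 316 settings, turned sign in 12, and in 2 (Top2a and Tk1 with DESeq2) passed the threshold. DESeq2 gave no adjusted p for Ccnb2, Plk1, Kif11, Kif20a, Nusap1, Prc1, Ube2c, Rrm2, Ccne1, Cdt1 and Gins2. These settings were counted as kept although they have no side of the threshold. Same-numbered libraries of the groups did not deviate together (correlation of deviations over genes -0.04, -0.03 and -0.02 for numbers 1 to 3). The labels state no pairing, and with so few libraries this correlation cannot exclude one. With the replicate block the medians were -0.59 for mitosis and -0.28 for replication, and 7 members had an unadjusted p under 0.05. Low counts limit the mitotic genes, 9 of which were too low to be tested.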
